A study of Mus musculus with 15 samples.

Results

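The subject here was a set of 10 genes that mark fates other than the cortical interneuron among neurons of the ventral telencephalon. They were chosen by name from both deposited tables of a mouse RNA-seq study. Several roles were represented: *Gbx1* and *Gbx2*, homeobox genes of the septum and basal telencephalon; *Chat* and *Slc18a3*, which encode the enzyme that makes acetylcholine and the transporter that loads it into vesicles; *Zic1* and *Zic4*, zinc finger genes of the septum and of cholinergic lineages; and *Ebf1*, *Six3*, *Foxp1* and *Foxp2*, transcription factor genes of striatal projection neurons. Of these 10 genes, 7 had a row in the *Lhx6* table, which held 26835 genes, and 6 had a row in the *Mtg8* table, which held 25714 genes. *Gbx2*, *Chat* and *Slc18a3* had no row in either table, so their expression was not analysed here, and *Gbx1* had a row in the *Lhx6* table only.

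The medial ganglionic eminence (MGE) is a zone of the embryonic ventral forebrain. Its *Nkx2-1*-expressing progenitors give rise to cortical interneurons, which migrate into the cortex, and also to cholinergic and projection neurons that stay in the basal forebrain. LHX6 is a LIM-homeodomain transcription factor of postmitotic interneurons from the MGE, and MTG8, encoded by *Runx1t1*, is a transcriptional co-repressor. Cholinergic neurons of the basal forebrain use LHX8 and ISL1 during their development, and the 2 main classes of striatal projection neuron, of the direct and the indirect pathway, use EBF1 and SIX3 respectively. FOXP1 and FOXP2 are shared by striatal projection neurons and by several other neurons, including pyramidal neurons of the cortex.

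All 15 libraries came from E14.5 embryos that carried the Nkx2-1-Cre transgene and a YFP reporter at the R26R locus on a mixed C57BL6/CBA background, so that cells with a history of *Nkx2-1* promoter activity were YFP+ve. Sorting was done on the cortex of 1 embryo per library. Whether tissue of the basal forebrain was carried over in the dissection was not tested. The groups were Lhx6+/+ (control, n = 4), Lhx6-/- (mutant, n = 5), Mtg8+/+ (control, n = 3) and Mtg8-/- by label (n = 3), and the study's methods describe the controls as littermates. Both mutant alleles were germline, so that every cell of the embryo carried them, and the *Mtg8* allele was a LacZ knock-in.

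Between 12218422 and 22053032 reads were counted per library. *Lhx6* itself fell to 4.57% of its control level in Lhx6-/- libraries, with a log2 fold change of -4.48 (SE 0.20, adjusted p = 1.34e-07 from limma). *Runx1t1* was not lower in the 3 libraries labelled Mtg8-/-, where its normalised counts of 12250 to 13934 lay above all 3 controls, at 7938 to 10264.5, so they are called the libraries labelled *Mtg8* mutant. A count per gene does not tell which exons of a knock-in allele the reads came from. In the same libraries *Sst* stood at 39.6% and *Npy* at 47.2% of control, each below all 3 controls (adjusted p = 0.0713 and 0.58 from limma). *Nkx2-1* was detected in every library, at normalised counts of 546.6 to 1578, and *Gad2*, which encodes a GABA-synthesising enzyme, at 2035 to 5551. All *Lhx6* controls and mutant 6 had library names without a date, while mutants 1, 2, 3 and 5 had names with one. Library names also carry codes: *Lhx6* mutant 6 shared one with controls 1 and 2, mutants 2 and 5 shared another, and labelled *Mtg8* mutant 2 shared one with *Mtg8* controls 1 and 2, while the other mutants shared none with a control. What the names record was not stated, the replicate numbers do not follow these codes, and name style and genotype cannot be told apart in that table except through mutant 6. Normalised counts are reads divided by a size factor for each library, and the tables were normalised separately, so values were compared within a table only. The samples are bulk RNA, in which fewer cells of a type and less RNA per cell cannot be told apart.

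Promoter sequence is shown for 3 members: *Foxp1*, whose control and mutant groups did not overlap in the *Lhx6* table, and *Zic1* and *Six3*, which had the largest fitted fold changes there. Each sequence is the stretch before a RefSeq transcription start that holds no annotated exon, on GRCm38.p6, the build of the deposited tables, printed 5′ to 3′ on the strand of the gene. Capitals mark the letters TAATTA, a core that many homeodomain proteins, including LIM-homeodomain factors, recognise. The *Foxp1* stretch (minus strand, chr6:99266533-99266765) precedes a start inside the annotated gene. It was chosen because it holds these letters, and the windows of the other 2 *Foxp1* starts in the table do not. The stretch of *Zic1* (minus strand) spans chr9:91365811-91366018, and the stretch of *Six3* (plus strand) spans chr17:85620584-85620789.

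Foxp1: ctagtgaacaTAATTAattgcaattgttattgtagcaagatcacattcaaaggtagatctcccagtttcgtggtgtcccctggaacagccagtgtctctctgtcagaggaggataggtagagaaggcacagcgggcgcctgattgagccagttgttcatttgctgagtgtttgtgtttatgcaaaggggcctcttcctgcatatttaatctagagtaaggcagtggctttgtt

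Zic1: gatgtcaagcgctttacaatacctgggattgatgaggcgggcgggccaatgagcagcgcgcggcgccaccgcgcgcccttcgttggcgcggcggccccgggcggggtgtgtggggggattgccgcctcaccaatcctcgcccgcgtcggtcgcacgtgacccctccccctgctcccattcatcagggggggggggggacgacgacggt

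Six3: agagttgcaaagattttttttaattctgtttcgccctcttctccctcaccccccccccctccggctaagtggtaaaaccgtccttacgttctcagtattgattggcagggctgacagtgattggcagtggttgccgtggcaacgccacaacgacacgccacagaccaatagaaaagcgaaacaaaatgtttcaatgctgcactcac

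TAATTA reads the same on both strands, and it was searched in the 250 bases before every RefSeq start in the promoter table. It was found in 4.84% of 32851 windows and in 1 of the 11 windows of the 8 members that had one, the *Foxp1* window shown. *Gbx1* and *Foxp2* had no window in that table. A match is a run of letters, not a binding site, and no binding was measured in these samples.

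The first comparison asked how these genes stood in MGE-derived cortical cells without *Lhx6*. *Foxp1* and *Foxp2* were the 2 members whose normalised counts in all 5 mutants lay above all 4 controls. Neither passed limma, the main test, and both passed DESeq2, so their call depended on the test. *Zic1*, *Zic4* and *Six3* had higher means in mutants that came mainly from 1 or 2 libraries, and *Ebf1* overlapped widely. At an adjusted p under 0.05, limma called 0 of the 6 members tested, where it called 1.71% of all 16727 genes tested and 1.03% in the higher direction. Without adjustment, 3 members, *Foxp1*, *Foxp2* and *Zic1*, were among the 2132 genes with p under 0.05. edgeR's quasi-likelihood test on the recovered reads called 0 members as well, and DESeq2 called 2, both higher, where it called 3.05% of all genes higher. The groups did not overlap, with mutants higher, in 2 of 6 members and in 3.19% of all genes.

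*Foxp1* (ENSMUSG00000030067.17, chromosome 6 from 98925338 to 99522721, minus strand) had normalised counts of 547, 789, 633 and 529 in *Lhx6* controls 1 to 4. In *Lhx6* mutants 1, 2, 3, 5 and 6 its normalised counts were 1218, 1118, 1005, 905 and 809.8. Every mutant lay above every control, and the gap between mutant 6, the lowest mutant, and control 2, the highest control, was small. The control mean was 624.5 ± 119 (SD, n = 4) against a mutant mean of 1011 ± 163 (SD, n = 5), which is 162% of control. The log2 fold change was 0.70 (SE 0.17, adjusted p = 0.0685 from limma), against 0.69 (SE 0.18, adjusted p = 0.00643) from DESeq2. An exact two-sided permutation test of the library values gave an unadjusted p = 0.00794, the smallest that 4 against 5 allows. With DESeq2 the call was lost without *Lhx6* control 1 or control 4, with adjusted p from 0.000759 to 0.0739 over the 9 libraries left out in turn. Mutant 6, the mutant whose name is undated like those of the controls, had the lowest *Foxp1* value of the mutants. With name style in the fit, the log2 fold change was 0.39 in limma and 0.37 in DESeq2. That fit compares mutant 6 alone with the 4 controls, so it gives an effect size only.

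*Foxp2* (ENSMUSG00000029563.16, chromosome 6 from 14901349 to 15441977, plus strand) had normalised counts of 229, 206, 178 and 189 in controls 1 to 4. In mutants 1, 2, 3, 5 and 6 they were 238, 391.5, 284, 351 and 436. Again no mutant fell within the control range, but mutant 1 was close to control 1. Controls averaged 200.3 ± 22.2 (SD, n = 4), and mutants averaged 339.9 ± 80.0 (SD, n = 5), or 169.7% of control. The fitted log2 fold change was 0.73 (SE 0.21, adjusted p = 0.125 from limma) and 0.76 (SE 0.22, adjusted p = 0.0169) from DESeq2, and the exact permutation test gave an unadjusted p = 0.0159. Under DESeq2 the call was lost without controls 2, 3 or 4 or mutants 2 or 5, with adjusted p from 0.000546 to 0.110. Mutant 6 had the highest *Foxp2* value and the lowest *Foxp1* value of the mutants, so the order of the mutants differed between the 2 genes. With name style in the fit the log2 fold change of *Foxp2* was 1.12 in both tests, which again rests on mutant 6 alone against the controls.

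**Figure D1:**
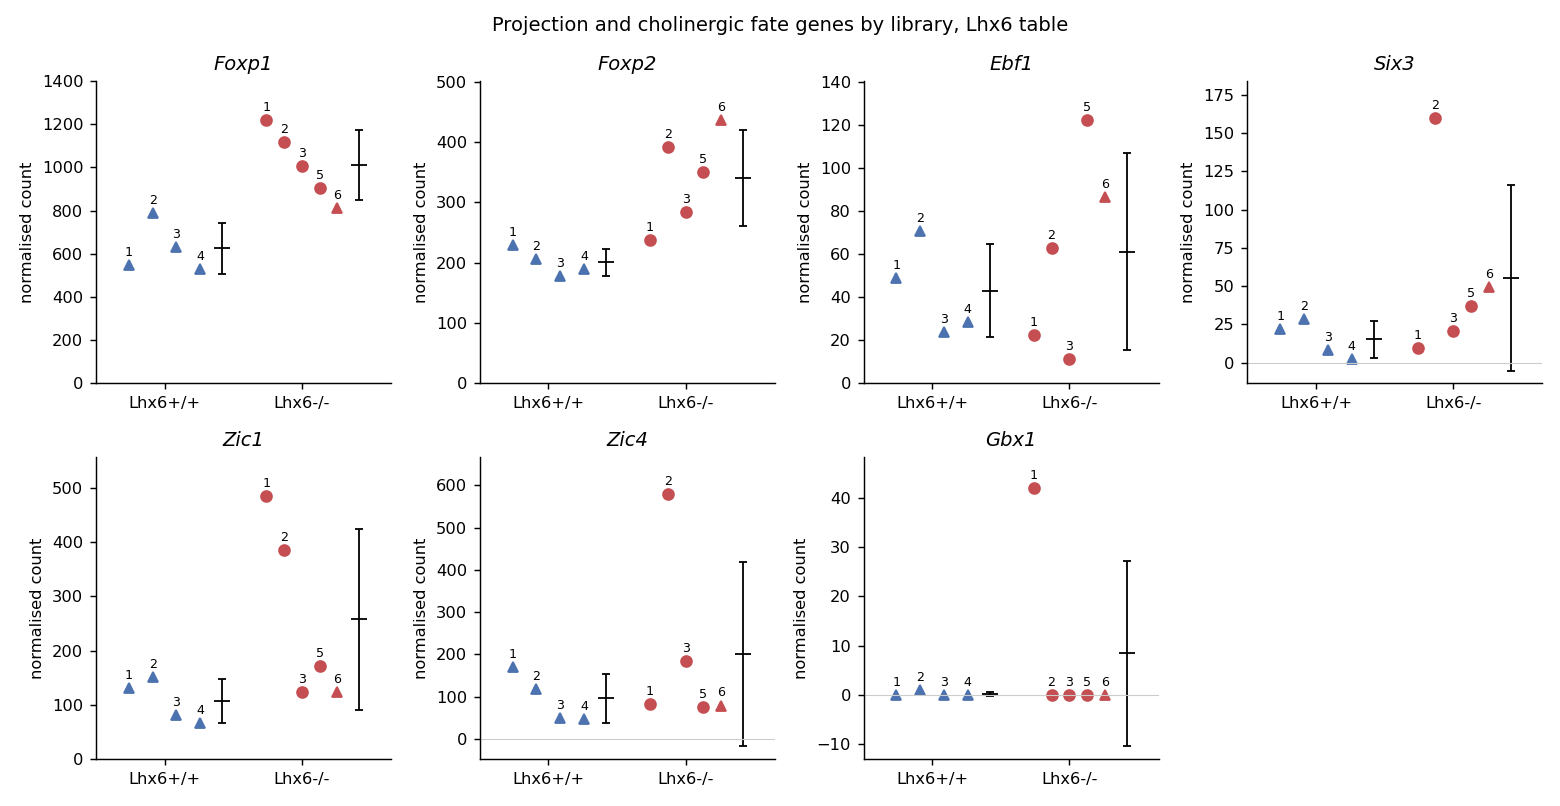
Normalised count of each member with a row in the *Lhx6* table (vertical axes, linear) in 4 control and 5 mutant libraries, numbered by replicate. Circles are libraries with dated names, triangles those with undated names, and the black bars are the mean ± SD. *Foxp1* and *Foxp2* separate the groups, while *Zic4*, *Six3* and *Gbx1* each have 1 mutant library far above the rest.

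The order of the 2 *Foxp* genes was set beside that of 8 pyramidal neuron markers, since FOXP1 and FOXP2 are also made in cortical pyramidal neurons. The summed normalised count of these markers was 13990 to 19460 in *Lhx6* controls and 11258 to 15418 in *Lhx6* mutants. The groups overlapped in this sum while they did not overlap in *Foxp1* or *Foxp2*. The part of pyramidal neuron RNA in the *Foxp* values was not tested in either table. The picture differed in the *Mtg8* table, described with its members.

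*Zic1* (ENSMUSG00000032368.14, chromosome 9 from 91358058 to 91365810, minus strand) had normalised counts of 131, 151.5, 80.2 and 65.9 in controls 1 to 4. Its counts were 485, 385.0, 124, 171.5 and 124 in mutants 1, 2, 3, 5 and 6. Mutants 1 and 2 stood well above the controls, mutant 5 slightly above them, and mutants 3 and 6 fell within the control range. The log2 fold change was 1.10 (SE 0.43, adjusted p = 0.305 from limma, 0.0734 from DESeq2), with an exact p of 0.103. DESeq2 called it when *Lhx6* mutant 3 or mutant 6 was left out, the 2 lowest mutants, at a lowest adjusted p of 0.0163.

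*Zic4* (ENSMUSG00000036972.14, chromosome 9 from 91362413 to 91389348, plus strand) is the neighbour of *Zic1*, and their exons overlap on opposite strands. Whether counting used strand was not given in the sources used here, so reads in the overlap cannot be assigned to either gene with certainty. *Zic4* had normalised counts of 169, 118, 48.8 and 47.9 in controls and of 81.7, 580.3, 184, 75.6 and 79.2 in mutants 1, 2, 3, 5 and 6. Mutant 2 lay far above all other libraries, and 3 of the 5 mutants were within the control range. The log2 fold change was 0.75 (SE 0.59, adjusted p = 0.616 from limma), and it was 0.23 without mutant 2 (adjusted p = 0.863). Mutant 1, the library with the highest *Zic1*, was near the control median for *Zic4*, so the neighbours did not follow each other across the mutants. Among undated names alone, mutant 6 against the 4 controls, the difference was 0.29 on the log2 scale for *Zic1* and -0.06 for *Zic4*.

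*Six3* (ENSMUSG00000038805.10, chromosome 17 from 85613608 to 85629302, plus strand), of indirect pathway striatal neurons, was low in controls, at normalised counts of 22.1, 28.4, 8.29 and 2.57. In mutants it was 9.90, 160.1, 20.5, 36.8 and 49.5. Mutant 2 was again the highest library, mutants 5 and 6 were above all controls, and mutants 1 and 3 were within the control range. The log2 fold change of 1.61 was the largest among the members, but so was its error (SE 0.80, adjusted p = 0.429 from limma, 0.208 from DESeq2). It was 1.08 without mutant 2 (adjusted p = 0.646). The exons of *Six3* overlap those of *Six3os1*, an antisense RNA gene, whose normalised counts were 2.57 to 136 in controls and 17.3 to 217.5 in mutants and whose log2 fold change was 1.33 (SE 0.95, adjusted p = 0.581 from limma).

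*Ebf1* (ENSMUSG00000057098.14, chromosome 11 from 44617317 to 45008091, plus strand), of direct pathway striatal neurons, had normalised counts of 49.0, 70.9, 23.9 and 28.2 in controls. In mutants 1, 2, 3, 5 and 6 it had 22.3, 62.9, 11.2, 122 and 86.7. The mutants lay on both sides of the controls, 2 above all of them and 2 below all of them. The log2 fold change was 0.18 (SE 0.64, adjusted p = 0.917 from limma), and it turned negative without *Lhx6* control 3, mutant 5 or mutant 6, at -0.05, -0.18 and -0.06.

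*Gbx1* (ENSMUSG00000067724.5, chromosome 5 from 24502757 to 24527202, minus strand) was counted in 2 libraries. Mutant 1 had 34 reads, a normalised count of 42.1, and control 2 had 1 read. The other 7 libraries of the *Lhx6* table had 0 reads, and a count of 0 allows up to 3 reads at this depth, counting error alone considered. *Gbx1* did not pass the minimum mean of 10 and was not tested by limma. The 34 reads came from 1 embryo, so they give no difference between genotypes (exact permutation p = 1).

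Between genes, levels were compared per kilobase of annotated exon in the *Lhx6* controls. *Foxp1* was the highest, at 45.4 ± 8.62 normalised counts per kb (SD, n = 4), followed by *Zic1* at 18.8 ± 7.14, *Foxp2* at 12.3 ± 1.36, *Zic4* at 9.28 ± 5.69, *Ebf1* at 4.41 ± 2.21, *Six3* at 2.81 ± 2.19 and *Gbx1* at 0.064 ± 0.13. *Foxp1* spanned 38.5 to 57.4 per kb, against 11.6 to 26.6 for *Zic1*, without overlap. From *Zic1* to *Six3*, neighbours in the order overlapped and do not differ beyond their spread, whereas *Zic1* and *Foxp2* lay wholly above *Ebf1*, at 2.46 to 7.27 per kb, and *Six3*, at 0.471 to 5.21. *Gbx1*, at 0 to 0.255 per kb, did not overlap *Six3*. The lowest *Six3* library had 3 reads, which is also what a count of 0 for *Gbx1* allows, so in that library the last step was not resolved.

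The second comparison asked the same of *Mtg8*. None of the 5 members tested was called in the libraries labelled *Mtg8* mutant, and limma called 0 of 16132 genes, which is 0% in either direction and 0% higher. Without adjustment, 886 genes had p under 0.05, *Ebf1* among them. DESeq2 called 21 genes higher, 0.144% of those it tested, and 10 lower, without a member, and edgeR called 1 gene, no member. *Ebf1* was the 1 member of 5 whose labelled mutants all lay above all controls, an arrangement seen in 4.68% of all genes tested.

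*Ebf1* had normalised counts of 21.2, 17.1 and 22.5 in *Mtg8* controls 1, 2 and 4, against 53.2, 37.7 and 52.0 in labelled mutants 2, 3 and 4. No value of one group fell within the other, with a control mean of 20.3 ± 2.85 (SD, n = 3) and a mean of 47.6 ± 8.64 (SD, n = 3) in labelled mutants, or 235% of control. The log2 fold change was 1.19 (SE 0.39, adjusted p = 0.859 from limma, 0.466 from DESeq2). Exact permutation of the library values gave p = 0.1, and 3 against 3 cannot give less. The values rest on 16 to 23 reads per control library and on 41 to 68 reads per labelled mutant library. On the log2 scale the difference was 1.44 among dated names (1 labelled mutant against 2 controls) and 0.95 among undated names (2 labelled mutants against 1 control). Each style had 1 library in one of the groups, so the part of name style in this difference was not tested.

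*Foxp1* had normalised counts of 431.5, 676 and 348 in *Mtg8* controls 1, 2 and 4 and of 789.6, 500.0 and 367 in labelled mutants 2, 3 and 4. The groups interleaved, and the log2 fold change was 0.17 (SE 0.32, adjusted p = 0.95 from limma). It was -0.04 without control 4 and -0.12 without labelled mutant 2. *Foxp2* likewise overlapped, with 119.6, 187 and 85.1 in controls and 249, 128 and 162 in labelled mutants, and a log2 fold change of 0.48 (SE 0.35, adjusted p = 0.875 from limma).

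The 6 libraries of this table came in the same order by *Foxp1* as by the summed pyramidal markers, which were 9247, 12730 and 5019 in *Mtg8* controls 1, 2 and 4 and 20005, 10595 and 7914 in labelled mutants 2, 3 and 4. *Foxp2* had the same highest, second and lowest library, with labelled mutants 3 and 4 and control 1 in another order.

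**Figure D2:**
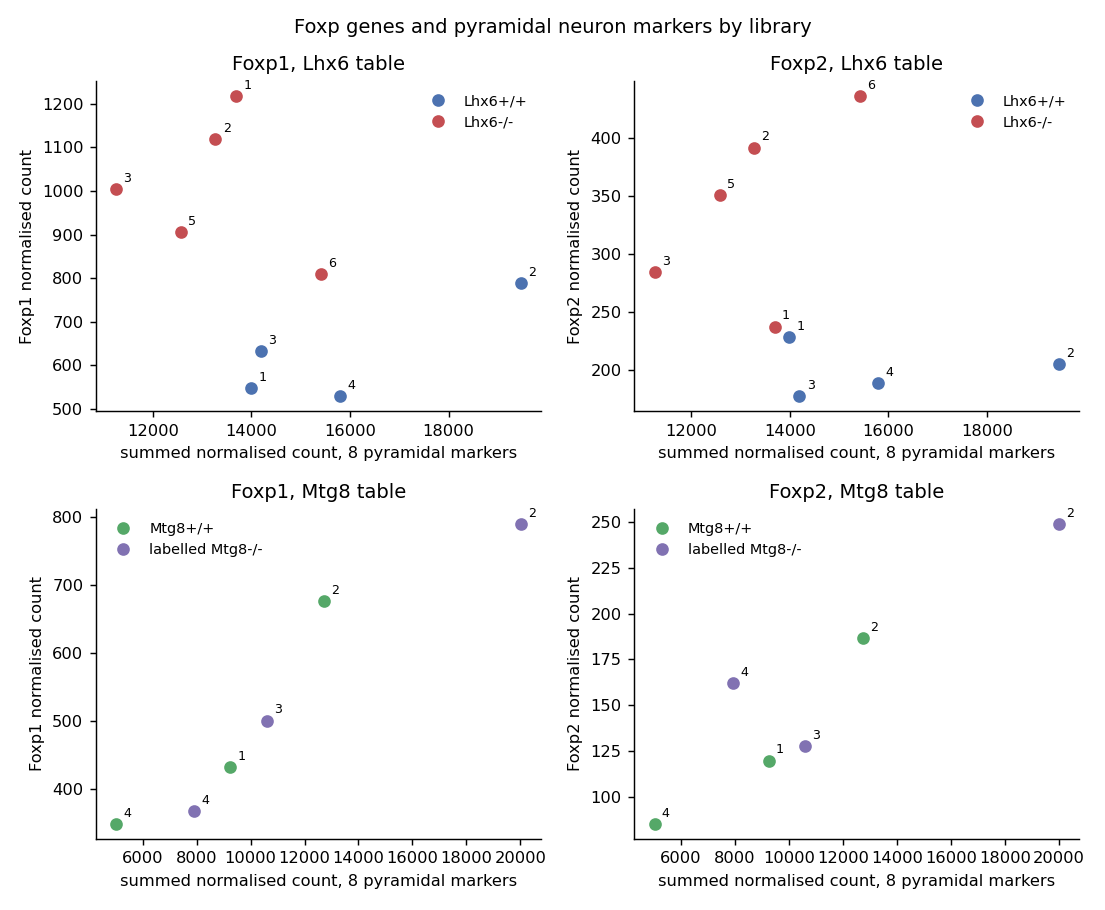
Normalised counts of *Foxp1* and *Foxp2* (vertical axes, not starting at 0) against the summed normalised count of 8 pyramidal neuron markers (horizontal axes) in each library, numbered by replicate, for the *Lhx6* table (top) and the *Mtg8* table (bottom). In the *Lhx6* table the groups overlap along the horizontal axis and not along the vertical axis, and in the *Mtg8* table libraries with higher marker sums have higher *Foxp1*.

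*Zic1* had normalised counts of 19.0, 18.1 and 40.1 in *Mtg8* controls and 64.6, 57.0 and 20.6 in labelled mutants, with labelled mutant 4 inside the control range (log2 fold change 0.80, SE 0.51, adjusted p = 0.866 from limma). *Zic4* had 30.2, 16.0 and 98.8 in controls and 96.3, 42.3 and 42.0 in labelled mutants, all 3 within the control range (log2 fold change 0.59, SE 0.58, adjusted p = 0.901). Control 4 was the highest control for both *Zic* genes. Within name styles both *Zic* genes went in opposite directions, *Zic1* by 1.75 on the log2 scale among dated and -0.21 among undated names and *Zic4* by 2.08 and -1.21, but each style had 1 library in one of the groups. *Six3* had 0 to 12 reads per library, a normalised count of 1.12, 0 and 11.7 in controls and 5.66, 5.51 and 4.59 in labelled mutants, and it was below the minimum mean for the test.

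**Figure D3:**
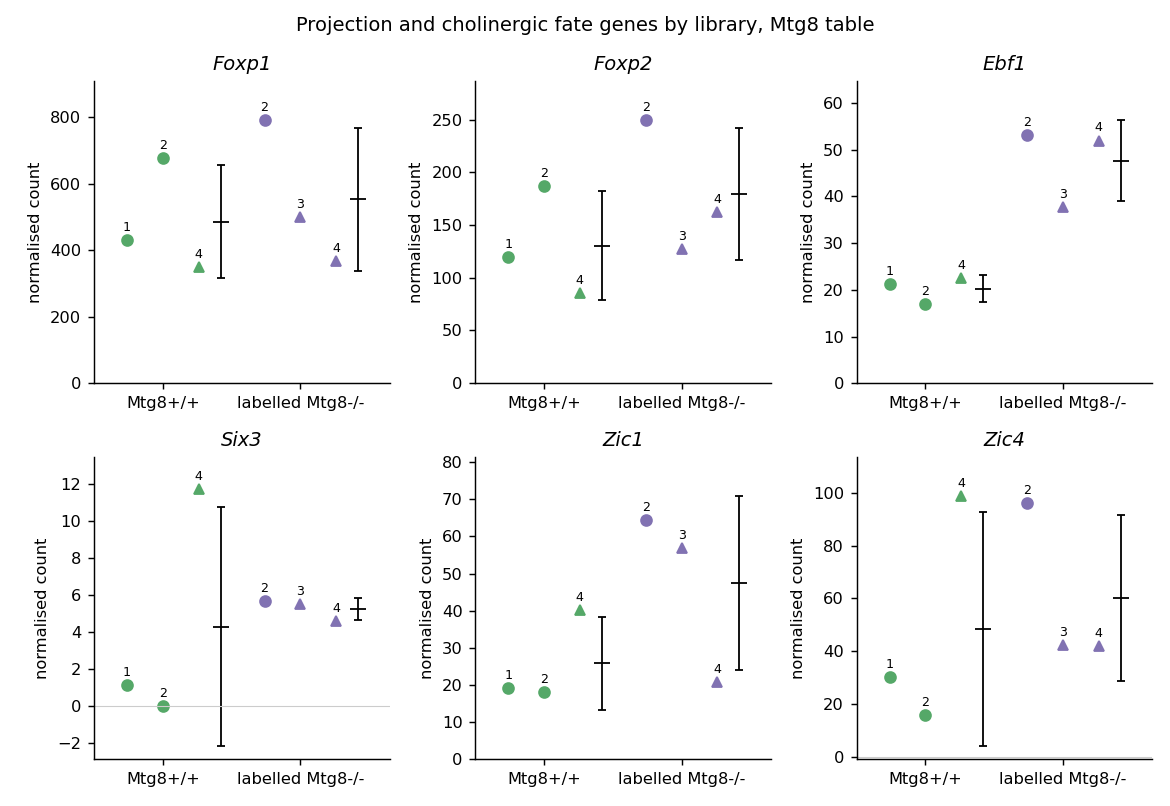
Normalised count of each member with a row in the *Mtg8* table (vertical axes, linear) in 3 control libraries and 3 libraries labelled *Mtg8* mutant, numbered by replicate, with circles for dated and triangles for undated library names and black bars for the mean ± SD. *Ebf1* separates the groups, and the other 5 genes overlap.

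Side by side, the fitted log2 fold changes of the members that passed the minimum mean were all above 0, 6 of 6 for *Lhx6* and 5 of 5 for *Mtg8*, where 46.6% and 48.5% of all genes tested were above 0. Their medians were 0.74 and 0.59, against -0.04 and -0.01 for all genes tested. This was not particular to the members in the *Mtg8* table, where 7 of 7 paralogues, 8 of 8 pyramidal markers and 6 of 7 progenitor markers were also above 0, with medians of 0.45, 0.69 and 0.58. No member passed the main test in either table, *Zic4* and *Ebf1* changed sign under some settings for *Lhx6*, and *Foxp1* did so for *Mtg8*, and whether the effects differed between *Lhx6* and *Mtg8* was not tested.

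**Figure D4:**
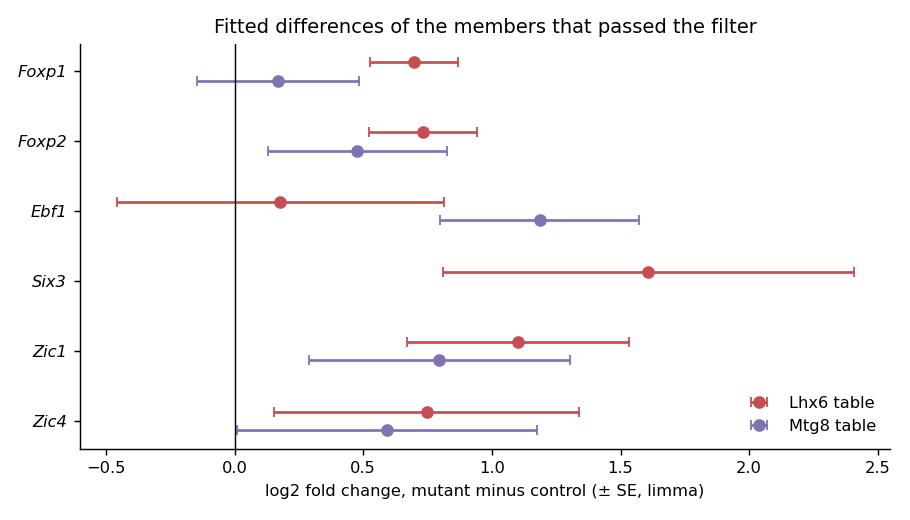
Log2 fold change, mutant minus control, from limma for each member that passed the minimum mean, in the *Lhx6* table (red) and the *Mtg8* table (purple). Bars are ± 1 SE, and *Six3* was not tested in the *Mtg8* table. *Foxp1* and *Foxp2* have the smallest errors in the *Lhx6* table, at 0.17 and 0.21.

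Other genes of the same fates were counted from lists of their own. Of 6 further genes of cholinergic neurons, 3 passed the minimum mean in the *Lhx6* table (*Lhx8*, *Isl1* and *Ngfr*), and limma called 0 of them. *Lhx8* and *Isl1* are described because their values were seen to stand out. *Lhx8*, a LIM-homeodomain gene required for forebrain cholinergic neurons, had normalised counts of 12.5, 25.7, 4.61 and 14.5 in controls and of 53.2, 139, 26.08, 48.4 and 49.5 in mutants 1, 2, 3, 5 and 6. Every mutant lay above every control, mutant 3 by little, and the log2 fold change was 2.05 (SE 0.55, adjusted p = 0.0982 from limma, 0.0116 from DESeq2). *Isl1* had 214, 30.1, 8.29 and 11.1 in controls and 16.1, 962, 19.6, 34.9 and 31.0 in mutants, so that control 1 and mutant 2 stood far above the others (log2 fold change 0.82, SE 1.16, adjusted p = 0.775 from limma). Mutant 2 was the highest library for *Zic4*, *Six3*, *Lhx8* and *Isl1*. *Ngfr*, the low-affinity neurotrophin receptor gene, had 54.9 to 104 in controls and 12.0 to 90.4 in mutants (log2 fold change -0.61, SE 0.52, adjusted p = 0.638 from limma). *Ache*, the acetylcholinesterase gene, and *Slc5a7*, the choline transporter gene of cholinergic terminals, were below the minimum mean, with means of 9.88 and 2.08 in controls and 4.26 and 0.495 in mutants.

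For *Mtg8*, 2 of the 6 cholinergic genes passed the minimum mean (*Isl1* and *Ngfr*) and 0 were called. *Lhx8* was at 0 to 9 reads in those libraries, with normalised counts of up to 8.27.

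Of 15 genes of striatal projection neurons, 14 had a row in the *Lhx6* table, 9 were tested, and limma called 1 higher and 0 lower. The called gene was *Bcl11b*, which encodes CTIP2, a factor of striatal projection neurons and of deep-layer pyramidal neurons. Its normalised counts were 5256, 5528, 7877 and 5508 in controls and 22824, 17852, 16358, 16692.5 and 9500.5 in mutants, with a log2 fold change of 1.43 (SE 0.22, adjusted p = 0.00353 from limma). Mutant 6, with its undated name, was the lowest mutant here too, and among undated names alone the difference was 0.67 on the log2 scale. *Sp9*, a zinc finger gene of striatal and interneuron precursors, was called by DESeq2 only and had a log2 fold change of 1.19 (SE 0.28, adjusted p = 0.0524 from limma, 0.00158 from DESeq2). *Meis2*, a homeobox gene of striatal neurons, was likewise called by DESeq2 only, at 149.5% of control (adjusted p = 0.171 from limma, 0.0458 from DESeq2). *Drd1*, the dopamine receptor gene of the direct pathway, was not called and had 0.961 to 19.4 in controls and 8.72 to 47.2 in mutants (log2 fold change 1.80, SE 0.73, adjusted p = 0.317). Among the genes that were not called, 3 had fitted values below 0. *Tac1*, the substance P precursor gene of the direct pathway, had normalised counts of 49.0 to 115 in controls and 0 to 122 in mutants, with 4 of 5 mutants below all controls (log2 fold change -3.71, SE 1.18, adjusted p = 0.176 from limma, and -1.47, SE 1.66, adjusted p = 0.732 from DESeq2). *Rgs9* was at -1.62 (SE 0.73, adjusted p = 0.386) and *Ppp1r1b*, which encodes DARPP-32, at -0.74 (SE 0.40, adjusted p = 0.471). The genes of the list stood on both sides of 0. The median log2 fold change of the 9 genes was 0.21, against -0.04 for all genes. For *Mtg8*, 0 of 9 genes were called, and 6 of 9 had fitted values above 0. Controls and labelled mutants were separate for 2 of the 9: *Bcl11b* had a log2 fold change of -0.55 (SE 0.25, adjusted p = 0.859 from limma) and *Ppp1r1b* one of 1.11 (SE 0.37, adjusted p = 0.859). All labelled mutants lay above all controls in 4.68% of all genes tested, and the share below was not counted.

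Among 7 genes of pallidal and preoptic neurons, 4 were tested in the *Lhx6* table, and limma called 1 lower. This was *Npas1*, a factor of pallidal neurons and of interneurons, whose normalised counts were 312 to 661 in controls and 83.3 to 186 in mutants, with a log2 fold change of -2.0 (SE 0.31, adjusted p = 0.00383). *Etv1*, an ETS factor gene, was called lower by DESeq2 only, at 70.6% of control with all 5 mutants below all controls (adjusted p = 0.195 from limma, 0.0407 from DESeq2). *Nkx2-1*, the gene whose promoter drives the Cre, had a log2 fold change of 0.21 (SE 0.19, adjusted p = 0.656). For *Mtg8*, 0 of 3 genes tested were called, and *Etv1* was at 153.5% of control with all 3 labelled mutants above all controls (log2 fold change 0.61, adjusted p = 0.859 from limma). Of 11 paralogues of the members, 8 were tested for *Lhx6* and 7 for *Mtg8*, and 0 were called in either comparison. Their summed normalised counts overlapped for *Lhx6*, but for *Mtg8* they were 171 to 196 in controls and 287 to 366 in labelled mutants, and those of the pallidal and preoptic list were 1329 to 1825 and 1907 to 2403, with neither list sum overlapping between groups. *Etv1* and *Nkx2-1* made up most of the latter sum. *Foxp4* had log2 fold changes of 0.71 (SE 0.28, adjusted p = 0.308) and 1.22 (SE 0.49, adjusted p = 0.859).

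**Figure D5:**
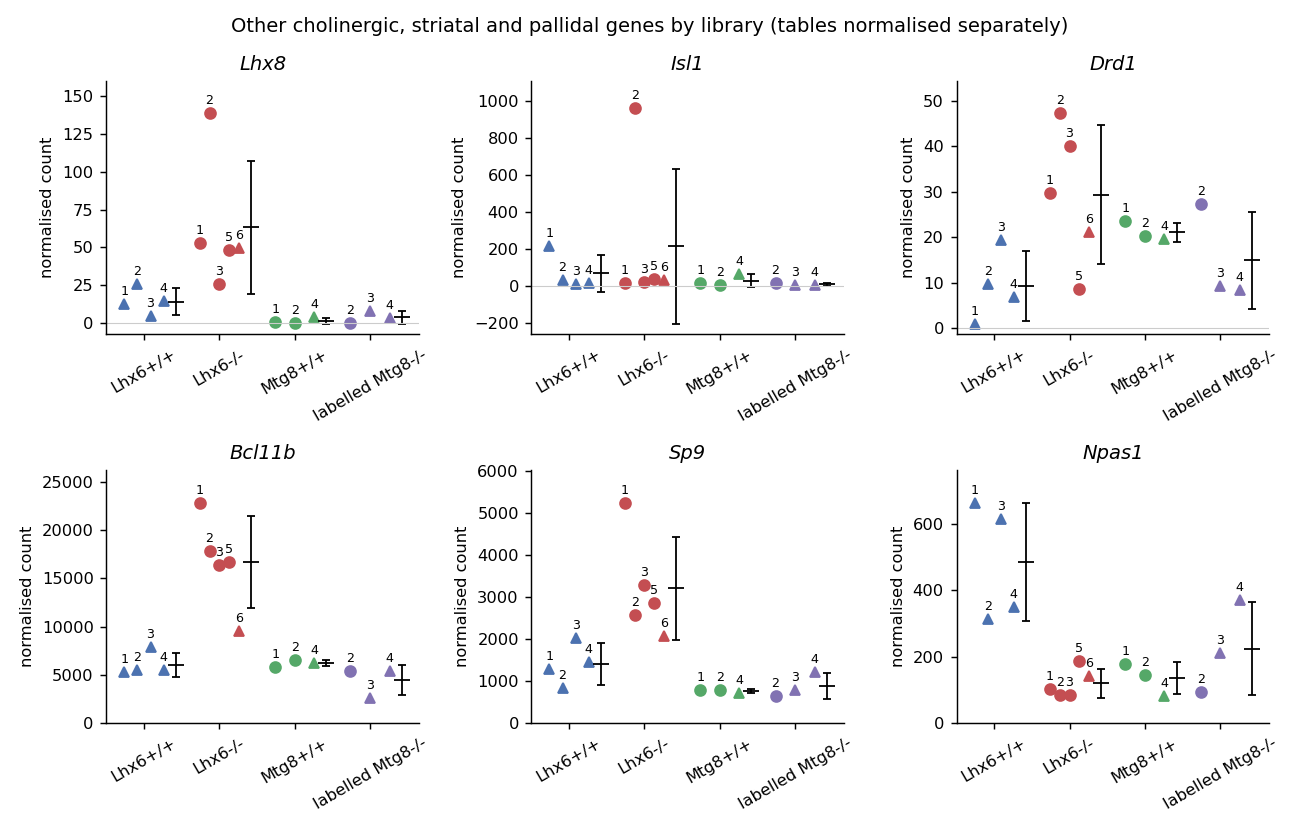
Normalised counts (vertical axes, linear) of 6 genes from the cholinergic, striatal and pallidal lists in all 4 groups, numbered by replicate, with circles for dated and triangles for undated library names and black bars for the mean ± SD. The tables were normalised separately, so only groups of the same table are comparable. *Bcl11b* is higher and *Npas1* lower in all *Lhx6* mutants, and *Isl1* is high in *Lhx6* control 1 and mutant 2.

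Markers of cell types that the sorted cells could hold were counted in the same way. In the *Lhx6* table limma called 5 of 14 MGE interneuron markers lower and 1 higher, led by *Lhx6* itself, *Sst* (-3.06, adjusted p = 9.01e-08) and *Npy* (-1.61, adjusted p = 0.00153), and of the 6 tested markers of interneurons from the caudal ganglionic eminence (CGE) it called *Adarb2* higher (4.33, adjusted p = 6.9e-06) and *Htr3a* lower (-1.65, adjusted p = 0.0451). It called 0 of the 8 pyramidal, 7 progenitor, 5 Cajal-Retzius, 7 vascular and meningeal, 5 microglia and blood and 3 oligodendrocyte markers tested. DESeq2 called in addition the CGE markers *Nr2f2* and *Sp8* higher (adjusted p = 0.00353 and 0.0328), the progenitor marker *Sox2* higher (208% of control, adjusted p = 0.00771, all 5 mutants above all controls) and the deep-layer pyramidal marker *Fezf2* lower (68.0% of control, adjusted p = 0.00392, all 5 mutants below all controls). The part of these cell types in the *Foxp1* and *Foxp2* values was not tested. The summed levels of the progenitor markers overlapped between *Lhx6* groups, at 8569 to 10555 in controls and 7744 to 14912.5 in mutants, and so did those of Cajal-Retzius cells, at 1756 to 2710 and 1892 to 3122. The summed MGE markers, which include the deleted *Lhx6*, were 52401 to 64540.0 in *Lhx6* controls and 31547 to 52133 in mutants, and without *Lhx6* they were 46589 to 56988 and 31207 to 51639, which overlap. Other sums were separate between *Lhx6* groups: CGE markers were 1348 to 1684 and 2317 to 2995, and the striatal list, which *Bcl11b* dominates, was 8544 to 12131 and 14786 to 31726. For *Mtg8*, limma called 0 markers, and DESeq2 called *Sst* and *Npy* lower and *Sp8*, *Neurod2* and *Emx1* higher (adjusted p = 6.76e-06, 0.0229, 0.0219, 0.0163 and 0.0415). *Sp8* is a CGE marker, and *Neurod2* and *Emx1* are pyramidal markers. In that table the summed progenitor markers were 5970.0 to 7351 in controls and 7685 to 12105 in labelled mutants, the MGE markers were 82632.5 to 88324 and 52353 to 67667, and the CGE markers were 1632 to 1702 and 1759 to 2560, each without overlap. The part of other cell types in the *Ebf1* values of that table was not tested.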

How the data were processed

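RNA-seq libraries of 15 mouse embryos were analysed, and groups were taken from the sample labels. Per the labels and the methods of the study, the authors trimmed reads with fastp 0.20.1, aligned them to GRCm38.p6 with STAR 2.7b, counted them with featureCounts 1.6.4 and removed sex-linked genes. The signal that the authors deposited is the count per gene and library divided by a DESeq2 size factor, in 2 tables normalised separately. The authors also deposited their own log2 fold changes with standard errors, a Wald score, and a p-value with its adjusted value for each gene, and these columns were not used. Whole reads were recovered from the values, with 100% whole within a tolerance of 0.01. Depth was 12218422 to 22053032 reads per library. The number of embryos limits the precision, p-values measure the spread between embryos, and floors of 3 reads cover counting error only.

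Each table was fitted alone in limma (version 3.58.1, under R 4.3.3) on log2(normalised count + 1), allowing a mean-variance trend and keeping genes whose mean was at least 10. Tests were two-sided, with Benjamini-Hochberg adjustment over all genes tested and a threshold of 0.05, and fold changes are on that log2 scale, which can under- or overstate those of low genes. The members and lists were chosen with earlier results of these data known. All members with a row were described, with each targeted gene in the table of its own mutant only. Genes that overlap a member were added and, of each list, the called genes (at most the 4 with the largest changes). One gene that this rule names is not reported here. Alternatives were pseudocounts of 0.5 and 10, no minimum or a minimum mean of 50, TMM factors, count tests of the recovered reads in DESeq2 1.42.0 and edgeR 4.0.16, a replicate block, name style as a covariate, and each library left out in turn. DESeq2 fits with libraries left out, with name style and with a block, and the marker sum without *Lhx6*, were added after the data were seen. Settings were tested on simulated data: with counts drawn for the *Lhx6* design limma recovered 93.8% of 194 changed genes among 16737, and for the *Mtg8* design 86.9% of 191 among 16158. Of its calls, 13 of 195 and 5 of 171 were unchanged genes. All changed genes were given a fold change of the same size, larger than those fitted for *Foxp1* and *Foxp2*. The simulated spread between libraries followed a formula of the mean and was not estimated from these data. The shares recovered therefore do not tell how often limma would call changes like those of the members. Promoter sequences came from RefSeq, GRCm38.p6.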

Additional observations from a re-analysis of the deposited data

Results flagged for a closer look

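A library was singled out when its distance to the nearest library of its group was a larger part of the range of the group than Dixon's 95% critical value allows. This was examined in 24 groups of gene values in the *Lhx6* table, whose groups have 4 and 5 libraries. The genes were the members with a row and *Lhx8*, *Isl1*, *Bcl11b*, *Npas1* and *Six3os1*. For genes chosen without sight of their values, chance singles out about 1 group in 20. That rate does not apply to *Lhx8* and *Isl1*, whose values had been seen to stand out. Nor does it apply to *Gbx1*, since a single value among values of 0 is always singled out.

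Several of the values came from *Lhx6* mutant 2. *Zic4* was 580.3 there, against 75.6 to 184 in the other mutants, *Six3* was 160.1 against 9.90 to 49.5, *Lhx8* was 139 against 26.08 to 53.2, and *Isl1* was 962 against 16.1 to 34.9. *Gbx1* was 42.1 in *Lhx6* mutant 1 and 0 in the other mutants, and 0.886, a single read, in *Lhx6* control 2 and 0 in the other controls. *Isl1* was 214 in *Lhx6* control 1, against 8.29 to 30.1 in the other controls. *Bcl11b* was 7877 in *Lhx6* control 3, against 5256 to 5528 in the others, and every mutant was above it.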

How the results depend on the processing

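For *Lhx6*, no member was called under 8 of the 9 alternatives that kept all libraries, and 2 were called by DESeq2, *Foxp1* and *Foxp2*. Leaving out 1 library gave 0 to 1 members: *Foxp2* was called without mutant 1 and *Foxp1* without mutant 6. The DESeq2 count of 2 became 0 with name style as a covariate and 0 with a replicate block, and 0 to 3 when 1 library was left out. Over all genes, the 286 calls became 756 with DESeq2, 57 with name style, 86 with the replicate block, and 159 to 492 without 1 library. Sign changes were seen for *Zic4* with name style (-0.062), for *Ebf1* with the replicate block (-0.77) and without 1 library (-0.18 to 0.65), and for *Foxp1* in the *Mtg8* table without 1 library (-0.12 to 0.44). The cause was not tested.

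In the *Mtg8* table no setting called a member. Over all genes, the 0 calls became 31 with DESeq2, 1 with edgeR, 2 with a minimum mean of 50, 1 with no minimum, 100 with the replicate block, and 0 to 87 without 1 library. Some replicate numbers are shared between groups, but the labels do not say that they pair embryos. A library whose number is not shared adds nothing to the genotype difference in a block fit. Deviations from group means of same-numbered libraries correlated at -0.154, 0.002 and 0.072 in the *Lhx6* table and at 0.138 and 0.159 in the *Mtg8* table, and the block changed no limma call of a member. With the block in DESeq2, *Foxp1* and *Foxp2* had log2 fold changes of 0.77 and 0.55 for *Lhx6* (adjusted p = 0.182 and 0.665). *Six3* in the *Mtg8* table and *Gbx1* rest on few reads, and differences there were not detectable at this depth.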
